A study of Mus musculus with 9 samples.

Results

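The 8 genes described here encode surface molecules through which cells hold on to, or signal to, cells of the immune system. They are Vcam1, Icam1, Cd44, Cd40, Cd47, Cd274, Cd80 and Cd86, taken by gene name from a table of 31167 genes, and all 8 were found. The gene annotation in the table places 7 of them, all but Cd47, on the external side of plasma membrane, a term given to 300 of 31139 genes. They were read in 9 RNA-Seq libraries of primary renal tubular epithelial cells from the kidney of C57BL/6 mice. The 3 Sham libraries carry no treatment in the labels, and the study describes Sham cells as untreated. The 3 H/R libraries are from cells kept for 6 h in glucose-free medium at 1.0% O2 and then for 18 h in complete medium under normal conditions. The 3 EGR1OV libraries are from cells transfected, with EndoFectin Max, with a plasmid that expresses Egr1 from the CMV promoter. The study names the plasmid as the treatment of the EGR1OV cells and hypoxia with reoxygenation as that of the H/R cells alone, while the labels repeat one protocol text for all libraries. There is no library with an empty plasmid, so the effects of transfection and of Egr1 cannot be told apart. The labels do not say that replicates came from separate cultures or animals, so p-values measure the spread between these libraries.

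Adhesion molecules of this kind are held at low levels on resting epithelium and endothelium and are raised by inflammatory cytokines, chiefly through NF-kB. VCAM1 and ICAM1 bind integrins on leukocytes, and CD44 binds hyaluronan. Costimulatory molecules decide what follows when a T cell meets its antigen: CD80 and CD86 engage CD28, whereas CD274 (PD-L1) engages the inhibitory receptor PD-1 and is known to be raised by interferon. CD40 is a receptor of the TNF family, and CD47 signals to phagocytes through SIRPA. In injured kidney, tubule cells are known to display VCAM1, ICAM1 and CD44.

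A RefSeq promoter window was matched for 5 of these genes (Icam1, Cd44, Cd47, Cd274 and Cd80), and Vcam1, Cd40 and Cd86 had no match. The windows of 3 genes are shown: Icam1 and Cd274, called against Sham in EGR1OV and not in H/R, and Cd44, called in both and not between the treated groups. None is shown of Vcam1, Cd40 or Cd47, which were called in H/R and were higher again in EGR1OV. Each is the 250 bases before a RefSeq start in GRCm38.p6, written in the direction of transcription, with motif matches in capitals. They lie at chr9:21015690-21015939 on the plus strand for Icam1, chr19:29367188-29367437 on the plus strand for Cd274 and chr2:102901666-102901915 on the minus strand for Cd44. By a comparison of sequence, the Icam1 window matched no transcript start in GENCODE M21. The Cd274 window did match, but it ends short of the gene start at 29367455.
Icam1: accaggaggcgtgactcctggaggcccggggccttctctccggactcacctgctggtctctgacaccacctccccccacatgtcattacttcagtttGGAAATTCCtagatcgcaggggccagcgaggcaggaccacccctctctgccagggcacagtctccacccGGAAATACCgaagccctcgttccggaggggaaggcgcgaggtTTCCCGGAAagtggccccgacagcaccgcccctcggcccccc
Cd274: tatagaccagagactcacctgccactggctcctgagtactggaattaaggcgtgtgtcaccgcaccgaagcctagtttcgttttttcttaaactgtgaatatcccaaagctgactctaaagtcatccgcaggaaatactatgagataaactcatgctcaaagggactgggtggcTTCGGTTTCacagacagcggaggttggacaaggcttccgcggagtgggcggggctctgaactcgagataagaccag
Cd44: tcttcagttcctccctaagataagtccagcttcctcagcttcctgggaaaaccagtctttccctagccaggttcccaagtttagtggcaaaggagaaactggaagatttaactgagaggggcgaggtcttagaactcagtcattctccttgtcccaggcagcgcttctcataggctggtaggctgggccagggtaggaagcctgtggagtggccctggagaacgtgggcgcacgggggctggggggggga

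For these windows 4 motifs were searched on both strands, with positions counted back from -1 at the base before the start. GGNNNTTCC, the NF-kB form, is found in 15.7% of 32536 RefSeq windows of the same length. GAAANNGAA, the interferon response form, is in 7.15%, TTCNNNGAA, the STAT form, in 7.04%, and GCGNGGGCG, the EGR form, in 4.74%. In the Icam1 window GGAAATTCC lies at -153 to -145 and GGAAATACC, an NF-kB match on the opposite strand, at -84 to -76. TTCCCGGAA, a STAT match, lies at -42 to -34 in the Icam1 window. In the Cd274 window TTCGGTTTC, an interferon response match on the opposite strand, lies at -76 to -68. No match of the 4 was found in the Cd44 window or in the 2 Cd47 windows, and the Cd80 window held GGAACCACC, an NF-kB match on the opposite strand. These matches describe letters in a window and not binding.

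Levels are FPKM, which divide the fragments of a gene by exon length and library size, and tests were made with limma on log2(FPKM + 1). Tests were limited to the 13985 genes whose mean level reached 0.5 FPKM. To be called, a gene needed a limma adjusted p under 0.05 and a 1.3-fold change, or 1.2-fold for H/R against Sham. These thresholds were applied to the log2 change, the difference of mean log2(FPKM + 1). Folds given for the 8 genes are ratios of mean FPKM, so they do not equal the log2 changes beside them. Of the 8 genes, 6 were tested, and Cd80 and Cd86 fell under the minimum. The depth of the libraries, recovered from the steps of the values, was 16183617 to 18384022 reads. Egr1 itself was at 6.20, 6.91 and 6.09 FPKM across Sham libraries, 8.57, 7.59 and 7.48 in H/R and 45.7, 42.2 and 40.1 in EGR1OV, so the EGR1OV labels and the level go together.

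All 6 tested genes were higher in EGR1OV than in Sham, by 1.45-fold for Cd44 up to 17.9-fold for Cd274. Over all tested genes 16.4% were called in this comparison, and 9.87% were called higher. The median log2 change of the 6 genes was 1.66, and that of all tested genes was 0.02. In H/R 4 of the 6 were higher than in Sham, namely Vcam1, Cd44, Cd40 and Cd47, with a median log2 change of 0.34 over the 6, against -0.03 over all genes. The background in that comparison was 4.25% called and 1.6% called higher. Between the treated groups directly, 5 of the 6 were higher in EGR1OV, with a background of 18.9% called and 11.9% called higher. Comparisons with Sham share the same 3 Sham libraries. The share of all calls that are higher depends on scaling: it was 60.3% in EGR1OV against Sham as deposited and 45.9% after quantile normalization, and 37.7% in H/R against Sham as deposited and 58% after median-ratio scaling. The calls of the 6 genes held under these scalings.

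**Figure D1:**
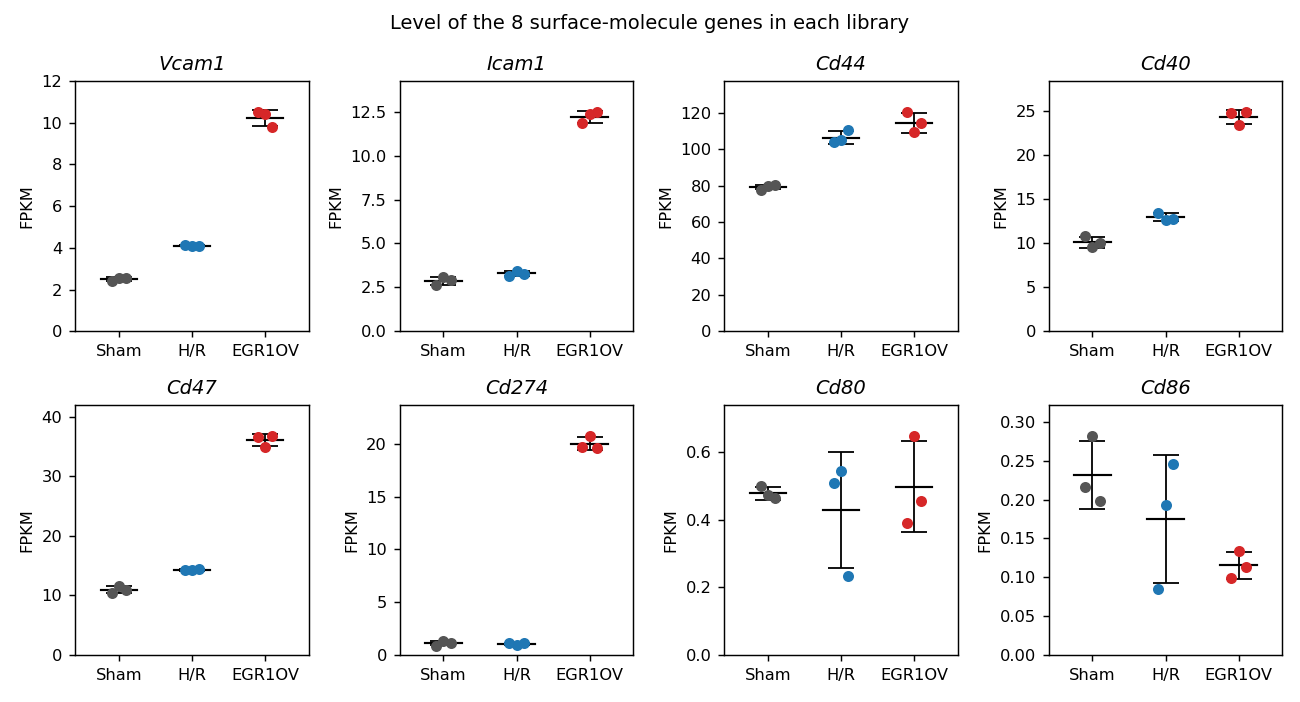
FPKM of each of the 8 genes (vertical axes, each from 0) in the 3 Sham, 3 H/R and 3 EGR1OV libraries, with points for libraries and bars for the mean and SD. The 6 tested genes were called higher in EGR1OV than in Sham, as were 9.87% of all tested genes. Cd80 overlaps between the groups and Cd86 lies lower in EGR1OV than in Sham.

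The integrin ligands came first. Vcam1 (ENSMUSG00000027962, in GRCm38 coordinates chromosome 3 from 116109949 to 116129688, minus strand), the ligand of integrin alpha4 beta1, was at 2.40, 2.55 and 2.57 FPKM across Sham libraries, 4.12, 4.09 and 4.07 in H/R and 10.5, 10.4 and 9.81 in EGR1OV. The 3 groups did not overlap, and the order was Sham, H/R, EGR1OV. The mean was 2.51 ± 0.0957 FPKM across Sham libraries, 4.10 ± 0.0253 in H/R and, for EGR1OV, 10.3 ± 0.385 (SD, n = 3 each). EGR1OV was 4.08-fold above Sham, with a log2 change of 1.68 (SE 0.042, limma adjusted p 1.71e-09). H/R was 1.63-fold above Sham, with a log2 change of 0.54 (SE 0.042, limma adjusted p 0.000209), the widest H/R change of the 8 genes. EGR1OV lay 2.503-fold above H/R (log2 difference 1.14, limma adjusted p 2.80e-08).

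Icam1 (ENSMUSG00000037405, chromosome 9 from 21015985 to 21028817, plus strand), the ligand of the leukocyte beta2 integrins, was at 2.65, 3.08 and 2.89 FPKM across Sham libraries, 3.15, 3.46 and 3.27 in H/R and 11.8, 12.4 and 12.5 in EGR1OV. The EGR1OV libraries stood far above the rest, and the H/R libraries lay just above the Sham libraries without overlap. EGR1OV was 4.25-fold above Sham, with a log2 change of 1.77 (SE 0.052, limma adjusted p 5.29e-09). The H/R change of 0.15 was not called (limma adjusted p 0.098, 95% interval 0.03 to 0.27), and the ratio of the means was 1.146. EGR1OV exceeded H/R by 1.62 on the log2 scale (limma adjusted p 1.03e-08). In Sham the Icam1 mean lay above that of Vcam1, and in H/R below it, with no overlap between the 2 genes in either group.

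Cd44 (ENSMUSG00000005087, chromosome 2 from 102811141 to 102901665, minus strand), the hyaluronan receptor, had the highest level of the 8 genes in each group. It was at 77.8, 79.5 and 80.2 FPKM across Sham libraries, 104, 105 and 110 in H/R and 120, 109 and 114 in EGR1OV. Both treated groups lay above Sham, and they overlapped each other. EGR1OV was 1.45-fold above Sham, with a log2 change of 0.53 (SE 0.038, limma adjusted p 3.59e-06). H/R was 1.34-fold above Sham, with a log2 change of 0.42 (SE 0.038, limma adjusted p 0.000451). The difference between EGR1OV and H/R was 0.11 on the log2 scale (limma adjusted p 0.0419, 95% interval 0.02 to 0.19), below the fold threshold, with an exact two-sided permutation p of 0.2. Cd44 was the only one of the 6 tested genes not called between the treated groups.

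Cd40 and Cd47 were both raised a little in H/R and more in EGR1OV. Cd40 (ENSMUSG00000017652, chromosome 2 from 165055627 to 165072948, plus strand), a receptor that activates NF-kB through TRAF proteins, was at 10.7, 9.53 and 9.94 FPKM across Sham libraries, 13.4, 12.6 and 12.7 in H/R and 24.8, 23.4 and 24.8 in EGR1OV. No library of one group reached into the next group. EGR1OV was 2.41-fold above Sham, with a log2 change of 1.19 (SE 0.047, limma adjusted p 4.97e-08). H/R was 1.28-fold above Sham, with a log2 change of 0.33 (limma adjusted p 0.00358), and EGR1OV exceeded H/R by 0.86 (limma adjusted p 4.83e-07).

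Cd47 (ENSMUSG00000055447, chromosome 16 from 49855618 to 49915010, plus strand), which restrains phagocytosis, was at 10.4, 11.6 and 10.9 FPKM across Sham libraries, 14.2, 14.2 and 14.4 in H/R and 36.5, 34.9 and 36.7 in EGR1OV. Again the groups did not overlap. EGR1OV was 3.28-fold above Sham, with a log2 change of 1.63 (SE 0.040, limma adjusted p 1.71e-09). H/R was 1.299-fold above Sham, with a log2 change of 0.35 (limma adjusted p 0.00153), and EGR1OV exceeded H/R by 1.28 (limma adjusted p 9.83e-09). Cd47 and Cd40 had overlapping levels in Sham, at 10.97 ± 0.628 and 10.1 ± 0.619 FPKM, and were apart in EGR1OV at 36.0 ± 1.02 and 24.3 ± 0.793 (SD, n = 3 each).

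Cd274 had the widest change of the 8 genes. This gene (ENSMUSG00000016496, chromosome 19 from 29367455 to 29388095, plus strand) was at 0.873, 1.31 and 1.17 FPKM across Sham libraries, 1.11, 0.901 and 1.09 in H/R and 19.8, 20.7 and 19.6 in EGR1OV. Sham and H/R overlapped, and EGR1OV stood apart from both. EGR1OV was 17.9-fold above Sham, with a log2 change of 3.32 (SE 0.079, limma adjusted p 1.31e-09), and 99.5% of tested genes had a lower log2 change. The H/R change was -0.06 (limma adjusted p 0.697, 95% interval -0.24 to 0.12), with an exact two-sided permutation p of 0.6. EGR1OV exceeded H/R by 3.37 (limma adjusted p 1.09e-09). Of the tested genes, 14.8% lay below Cd274 in Sham and 80.4% in EGR1OV.

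**Figure D2:**
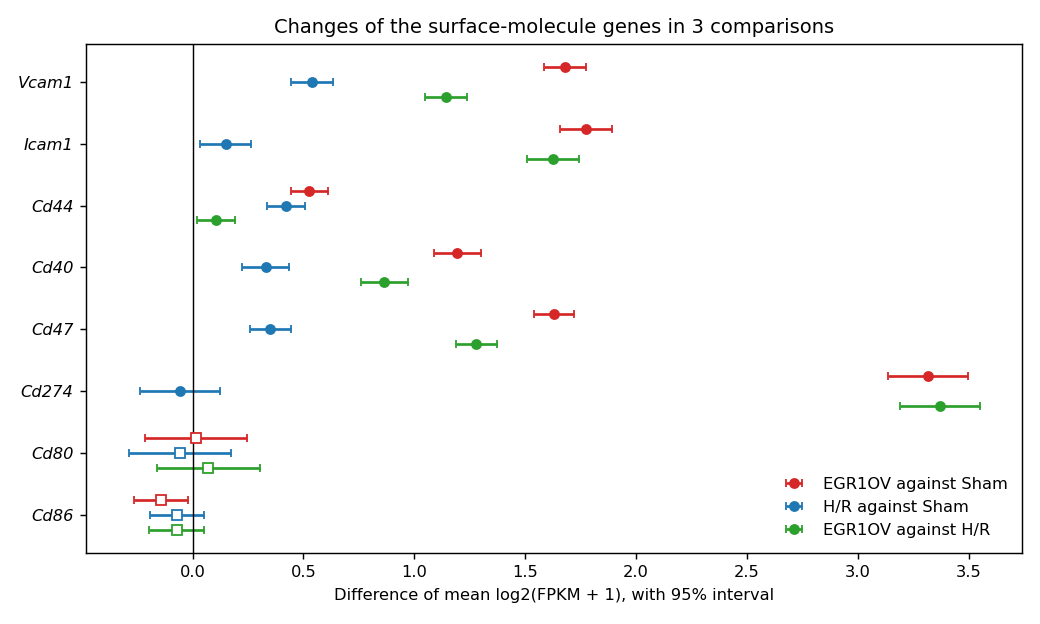
Differences of mean log2(FPKM + 1) with 95% intervals (horizontal axis) for each of the 8 genes in EGR1OV against Sham, H/R against Sham and EGR1OV against H/R. Filled circles are the 6 tested genes and open squares are Cd80 and Cd86 from a fit without the minimum level. Cd274 reaches 3.32 in EGR1OV against Sham and -0.06 in H/R against Sham, and Cd44 lies near 0.53 and 0.42.

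The B7 ligands Cd80 and Cd86 were near the limit of detection. Cd80 (ENSMUSG00000075122, chromosome 16 from 38458933 to 38486933, plus strand) was at 0.501, 0.472 and 0.463 FPKM across Sham libraries, 0.509, 0.544 and 0.232 in H/R and 0.389, 0.647 and 0.454 in EGR1OV. All groups overlapped. With no minimum level the log2 change in EGR1OV was 0.01 (limma adjusted p 1, 95% interval -0.22 to 0.24), and in H/R it was -0.06 (limma adjusted p 0.858). The annotated exon length did not give whole reads for Cd80 or for Cd47, so their values are given in FPKM, and their reads in limma voom are approximate.

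Cd86 (ENSMUSG00000022901, chromosome 16 from 36603869 to 36666081, minus strand) was at 0.216, 0.282 and 0.199 FPKM across Sham libraries, 0.0844, 0.193 and 0.246 in H/R and 0.0987, 0.134 and 0.114 in EGR1OV. EGR1OV lay below Sham without overlap, the opposite order to the 6 tested genes, and H/R overlapped both. The levels rest on 43 reads over the Sham libraries (95% exact Poisson interval 31.1 to 57.9), 34 over the H/R libraries (23.5 to 47.5) and 21 over the EGR1OV libraries (13.0 to 32.1). These intervals cover counting error only. The ratio of the EGR1OV mean to the Sham mean was 0.497, with an exact two-sided permutation p of 0.1, the smallest that 3 against 3 allows. With no minimum level the change in EGR1OV was -0.14 on the log2(FPKM + 1) scale (limma adjusted p 0.106), and limma voom on recovered reads gave -0.96 (adjusted p 0.123, 95% interval -1.85 to -0.07). The difference passed the adjusted threshold in neither fit.

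Macrophage markers were lower in EGR1OV too. The summed FPKM of 16 macrophage markers was 176 to 180 in Sham, 148 to 160 in H/R and 62.3 to 70.7 in EGR1OV. Of the 14 tested, 10 were lower and 2 higher in EGR1OV than in Sham, where 16.4% of all tested genes were called. The 2 higher were Cd14, from 5.46 to 18.0 FPKM (log2 change 1.55), and Mpeg1, from 13.2 to 18.0 (0.42). Both count in the sum, so it fell less than the 10 lower markers did together. Lyz2, the lysozyme of macrophages, fell from 57.7 to 5.46 FPKM (log2 change -3.19, limma adjusted p 2.74e-10), C1qa by 2.55 and C1qc by 2.38 on the log2 scale. In H/R 2 were lower, Adgre1 (log2 change -0.36, limma adjusted p 0.0359) and Lyz2 (-0.29, limma adjusted p 0.0191), calls that were lost under 9 and 5 of the alternative analyses. The part of these cells in the Cd86 values was not tested. In bulk RNA, fewer cells of a type and less RNA per cell cannot be told apart.

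Markers of other cells were read as well. Dendritic cell markers summed to 3.89 to 4.29 FPKM in Sham and 1.44 to 1.54 in EGR1OV, where Itgax was the 1 gene called of 2 tested. Itgax, with a Sham mean of 2.63 FPKM, made up most of the Sham sum. The other tested marker, Zbtb46, was called in neither comparison with Sham. Its mean went from 1.23 to 0.869 FPKM between Sham and EGR1OV (log2 change -0.25, limma adjusted p 0.00594). That was below the fold threshold on the log2(FPKM + 1) scale, although the ratio of the 2 means is wider than 1.3-fold. Flt3, a defining marker, was at 0.00654 FPKM in Sham and at 0 in the other groups. T and B cell markers summed to at most 0.429 FPKM, with none tested. Endothelial markers, which matter here because Vcam1 and Icam1 are also endothelial genes, summed to 19.5 to 20.3 in Sham, 19.9 to 20.7 in H/R and 16.2 to 16.6 in EGR1OV. Of 8 tested endothelial markers, Pecam1 alone was called in EGR1OV, beside 16.4% of all tested genes, and it was lower (log2 change -0.46). Fibroblast markers summed to 36.5 to 38.2 in Sham, 44.0 to 44.5 in H/R and 40.7 to 45.3 in EGR1OV. In Sham most of this sum was collagen, with Col1a1 at 21.1 and Col1a2 at 7.22 FPKM. Pdgfrb was at 4.20 and Postn at 3.83 FPKM there, while Pdgfra was at 0.191, Dcn at 0.0541 and Lum at 0. In EGR1OV Col1a2 was higher (0.45, lost after quantile normalization) and Thy1 lower (-0.50). In H/R Col1a2 (0.32), Col1a1 (0.27) and Postn (0.26) were higher, and the last 2 lost the call under 6 and 13 alternatives.

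The cells carried epithelial markers, with Krt8, Krt18, Epcam, Cdh1 and Pax8 all present, the last 2 at 86.2 and 13.1 FPKM in Sham. Of the markers of tubule segments, Umod was at 0 in every library and Slc34a1 and Slc12a3 were at or below 0.0209 FPKM in the mean of each group, while the proximal tubule genes Lrp2 and Aqp1 were above the minimum level in Sham, Lrp2 at 3.60 FPKM. In EGR1OV 4 of 9 tested tubule markers were lower, among them Lrp2 (log2 change -1.05), Aqp1 (-0.75) and Krt18 (-0.73), and Epcam was higher (0.39, a call lost under 3 alternatives). In H/R Epcam alone was called (0.33). Over all tested genes 16.4% were called in EGR1OV and 4.25% in H/R. The summed tubule markers ran from 1914 to 1951 FPKM across Sham libraries, 1771 to 1850 in H/R and 1251 to 1359 in EGR1OV.

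**Figure D3:**
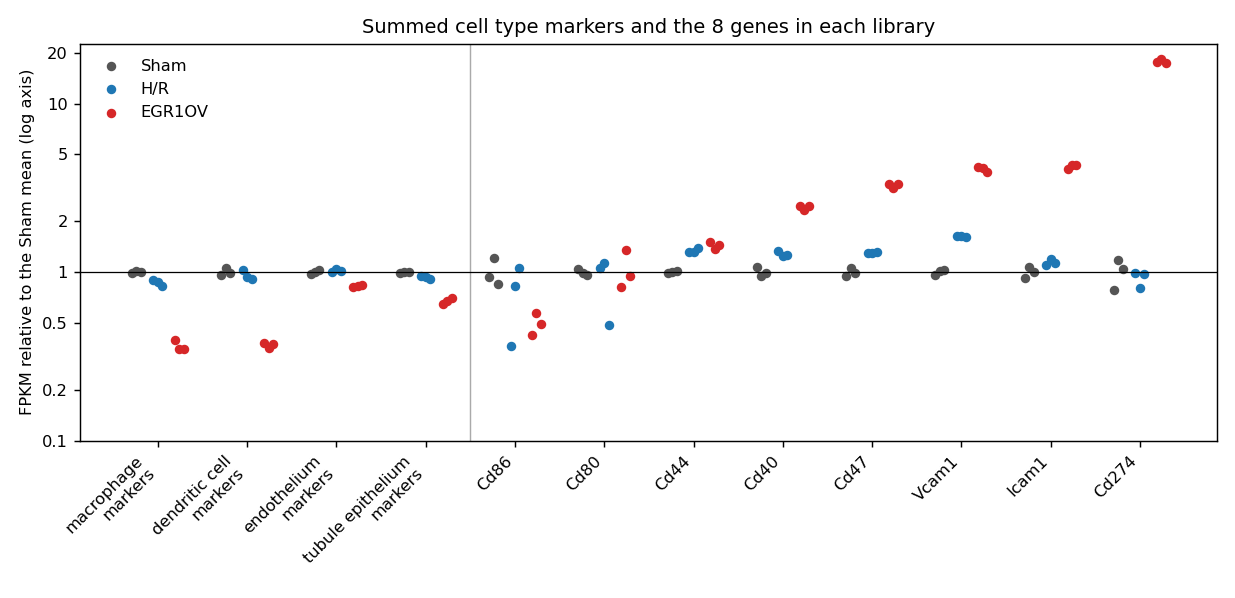
FPKM relative to the Sham mean (log axis) in each library for 4 summed marker lists, left of the grey line, and for the 8 genes, right of it. Summed macrophage markers, which include Cd14 and Mpeg1 that were higher, lie at 0.349 to 0.396 of the Sham mean in EGR1OV. Cd86 lies at 0.425 to 0.576 and Cd274 at 17.5 to 18.5.

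The counter-receptors and ligands were mostly lower in EGR1OV, where the 6 surface molecules were higher. Of 19 listed, 17 were matched and 10 tested. In EGR1OV 6 were lower and 1 higher than Sham, with a median log2 change of -0.59. Over all tested genes 16.4% were called in this comparison, and the median was 0.02. Itgax (integrin alphaX) fell from 2.63 to 0.347 FPKM (log2 change -1.43, limma adjusted p 1.77e-07) and Itgb2 (the beta2 chain that binds ICAM1) from 3.34 to 1.48 (-0.81, limma adjusted p 2.20e-06). Both are leukocyte integrins and Itgax stands in the dendritic cell list as well. Thbs1, a CD47 ligand, fell from 1282 to 794 FPKM (-0.69, limma adjusted p 1.77e-07). The gene that was higher was Has2, which makes hyaluronan for CD44, at 6.67 FPKM in Sham and 10.4 in EGR1OV (0.58, limma adjusted p 3.40e-06).

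In H/R 2 of the 10 were called, both higher, beside 4.25% of all tested genes called. Has2 rose from 6.67 to 12.4 FPKM (0.80, limma adjusted p 3.37e-05). Thbs1 rose from 1282 to 1549 FPKM (0.27, limma adjusted p 0.00167), a call lost under 4 alternatives. Itga4, the alpha chain of the VCAM1 receptor, was under the minimum level at 0.159, 0.230 and 0.0878 FPKM across Sham libraries, H/R and EGR1OV, while its partner Itgb1 was abundant at 1271, 1323 and 1018 FPKM. Pdcd1, the gene for PD-1, had 0 reads over the Sham libraries, 1 over H/R and 3 over EGR1OV, and Cd28 had 0, 1 and 1.

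Related adhesion molecules moved in both directions. Of 16 tested, 4 were higher and 5 lower in EGR1OV. Over all tested genes 16.4% were called in EGR1OV and 4.25% in H/R. Ncam1 was lower (log2 change -0.70, limma adjusted p 1.59e-06), and Alcam (0.62) and Nectin2 (0.60) were higher. In H/R 2 of 16 were higher, Cadm1 (0.34, limma adjusted p 0.00382) and Epcam (0.33, limma adjusted p 0.0006).

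Among the related costimulatory molecules the largest change in the list was that of Lgals9, which encodes galectin 9, a ligand of inhibitory T cell receptors. It was at 4.55, 4.62 and 4.56 FPKM across Sham libraries, 4.31, 3.92 and 3.14 in H/R and 112, 110 and 118 in EGR1OV. The EGR1OV libraries stood apart, with a log2 change of 4.36 (SE 0.077, limma adjusted p 1.80e-10). Vtcn1, the inhibitory ligand B7-H4, rose from 1.51 to 6.34 FPKM (1.54, limma adjusted p 3.00e-07), and Vsir (VISTA), also expressed by myeloid cells, fell from 1.64 to 0.288 (-1.03, limma adjusted p 8.16e-06). In all 4 of 11 tested were higher and 2 lower, beside 16.4% of all tested genes called in EGR1OV and 4.25% in H/R. In H/R 1 of 11 was higher, Vtcn1 (0.30, limma adjusted p 0.0402), a call lost under 10 alternatives.

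Proteins that handle these molecules or carry their signal were mostly not called. The list holds the CD274 partners Cmtm4 and Cmtm6, the CD47-modifying enzyme Qpctl, the sheddases Adam10 and Adam17, the CD44 linkers Ezr, Rdx and Msn, and the TRAF adaptors of CD40. Of 16 tested, Traf2 alone was called in EGR1OV (log2 change 0.40, limma adjusted p 0.0012), a call lost under 5 alternatives, and 0 were called in H/R by limma, where 5 had an unadjusted p under 0.05. Limma voom on recovered reads called 1 of 16 in H/R, Qpctl, which was lower (log2 change -0.28, adjusted p 0.015). In these 2 comparisons 16.4% and 4.25% of all genes were called.

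Transcription factors and receptors known to control these genes were higher in EGR1OV in 12 of 17 cases, with a median log2 change of 0.56. Over all tested genes 9.87% were called higher in EGR1OV and 1.6% in H/R, and the median log2 change in EGR1OV was 0.02. The interferon factors led. Stat2 was at 3.20, 3.78 and 2.71 FPKM across Sham libraries, 2.98, 2.79 and 2.58 in H/R and 71.0, 73.3 and 66.4 in EGR1OV. Like Cd274, it stood apart in EGR1OV and overlapped between Sham and H/R. Its log2 change was 4.08, and that of Irf9, the DNA-binding partner of STAT2, was 2.17 (limma adjusted p 6.33e-08). In H/R the changes were -0.15 for Stat2 and -0.29 for Irf9 (limma adjusted p 0.278 and 0.0678). The 3 genes called in H/R belong to the NF-kB pathway: Nfkb2 (0.33, limma adjusted p 0.000227), Relb (0.30, limma adjusted p 0.00429) and Nfkbia (0.29, limma adjusted p 0.00619). The Nfkbia call in H/R was lost without Sham replicate 3 and without H/R replicate 2. In EGR1OV the same 3 genes were also called higher, with log2 changes of 1.15 for Nfkbia, 0.56 for Relb and 0.45 for Nfkb2. The Nfkb2 call in EGR1OV was lost after quantile normalization.

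**Figure D4:**
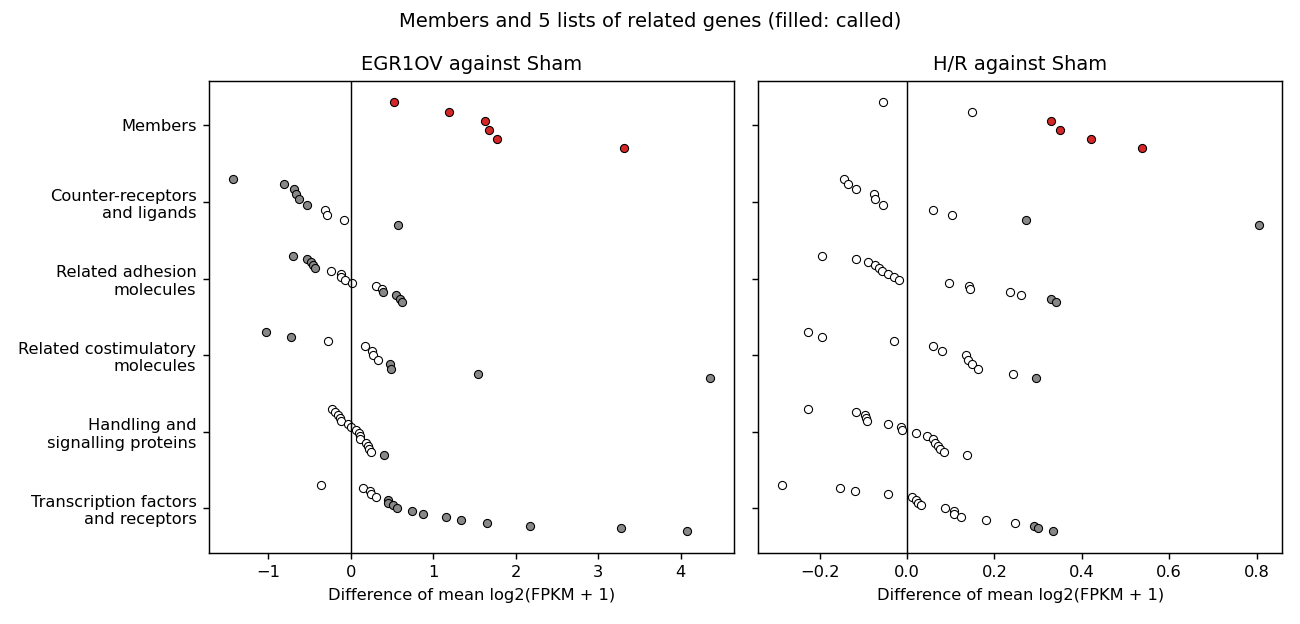
Difference of mean log2(FPKM + 1) (horizontal axes, of unequal range) for the 6 tested surface molecules and 5 lists of related genes, in EGR1OV against Sham (left) and H/R against Sham (right). Filled points were called. The 6 surface molecules lie right of 0 in EGR1OV and most counter-receptors lie left of it. There 12 of 17 transcription factors and receptors are called higher, beside 9.87% of all tested genes.

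The genes with the most similar profile over the 9 libraries differed between the members. These are Pearson correlations of log2 values over libraries that fall into 3 groups, and they are given as a description. Vcam1 was closest to Rnf19b (r 0.998), Nfkb1 (r 0.998) and Clic4 (r 0.997). Cd47 was closest to Rab19 (r 0.998), Tnfaip3 (r 0.998) and Csf1 (r 0.997). Icam1 was closest to Lrig1, Erap1 and Itm2b, with 242 genes above r 0.99. Cd274 was close to Rassf10 (r 0.9998) and Lgals8 (r 0.9995), with 332 genes above r 0.99. Without its EGR1OV mean of 8.04 FPKM, Rassf10 would lie under the minimum level. Its Sham mean was 0.356 and its H/R mean 0.325, so its r is not read further. Cd40 was closest to Ass1, F11r and BC005537. Cd44 was closest to Clint1 (r 0.986), Apbb2 (r 0.976) and Rgs16 (r 0.973), with 0 genes above r 0.99.

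Genes next to the members on the chromosome were read as well, 2 on each side, which made 32, of which 21 were tested. In EGR1OV 4 were called, 19.0% of those tested, near the 16.4% of all tested genes, and they are named after their values were seen. Both the 4 and the 21 include Slc15a2, whose call is not read for the reason given below. Plgrkt lies 65 bases before Cd274 in chromosome coordinates, with its strand not read, and overlaps the Cd274 window shown above. Plgrkt rose from 5.42 to 9.34 FPKM (log2 change 0.69, limma adjusted p 1.53e-05). Pla1a, 25788 bases before Cd80, rose from 1.43 to 7.39 FPKM (1.80, limma adjusted p 1.09e-06), while Cd80 itself was not called. Ildr1, after Cd86 in the genome, rose by 1.05. Slc15a2, also after Cd86, had mean levels of 0.130 FPKM across Sham, 0.131 across H/R and 1.25 across EGR1OV libraries, and it passed the minimum level only through EGR1OV, so nothing is read from its call. Pdcd1lg2, the gene for PD-L2 and 22824 bases after Cd274, was at 0.0246 FPKM in Sham and 0.0492 in EGR1OV. In H/R 1 of the neighbours was called, 4.76% of those tested against 4.25% of all tested genes. This was Bbx near Cd47, which was lower (-0.26, limma adjusted p 0.00871).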

How the data were processed

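The authors deposited one table of FPKM values, a column per library without pooling, from Illumina sequencing. The submitters' processing notes name HISAT2 2.1.0, Bowtie2 2.2.3, TopHat2 and build mm9 without saying what each did, and the counter and annotation are not given in the sources used here. Of gene positions, 94.6% were equal to GENCODE M21 (GRCm38), so coordinates are those of the table and are read as GRCm38.

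Reads were recovered from FPKM steps with M21 exon lengths, and 94.0% of 162886 values were whole within 0.02 reads. Tests used log2(FPKM + 1), a scale that understates changes of low genes, for 13985 genes in a single limma fit over 9 libraries (limma 3.58.1, R 4.3.3, trend, two-sided, Benjamini-Hochberg over all genes). The code was tested on simulated data. Promoters were taken from RefSeq tables. Tables and figures were made with matplotlib 3.10.9, scipy 1.17.1, pandas 2.3.3 and numpy 2.4.6 in Python 3.11.15.

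Members, gene lists and marker lists were chosen with earlier results of these data known. Named were the 8 members and Egr1, up to 3 called genes of largest change per list and comparison with Sham, and the 3 most similar genes per tested member. A gene that this rule picks is not reported here. Krt8, Cdh1, Pax8, Has2 in EGR1OV, other genes given as examples of a list, and the neighbouring genes were chosen after their values were seen. Alternatives were another pseudocount, other minimum levels, other scalings, a replicate block, no trend, only the groups compared, no fold threshold and each library left out. Limma voom on recovered reads, with and without the filter, and a covariate for Gm23935, a gene at 1494 to 21700 FPKM that differed within groups, were added after seeing the data.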

Additional observations from a re-analysis of the deposited data

Results flagged for a closer look

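The response to EGR1OV and to H/R, each against Sham, was tested for a difference between the 2 treatments with the limma contrast of EGR1OV with H/R, which removes the shared Sham libraries. Positive values mean a higher level in EGR1OV. Among the surface molecules the difference in log2 change was 3.37 for Cd274, 1.62 for Icam1, 1.28 for Cd47, 1.14 for Vcam1 and 0.86 for Cd40. It was 2.30 for Egr1.

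Of the other named genes, interferon and NF-kB factors differed by 4.23 for Stat2, 2.46 for Irf9 and 0.86 for Nfkbia. Costimulatory and adhesion genes differed by 4.58 for Lgals9, 1.25 for Vtcn1, 0.66 for Nectin2, -1.004 for Vsir, -0.84 for Ncam1, -0.45 for Cadm1 and -0.43 for Pecam1. Traf2 differed by 0.38, a call lost under 6 alternatives. Counter-receptors differed by -1.29 for Itgax, -0.96 for Thbs1 and -0.69 for Itgb2.

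Cell type markers differed by -2.90 for Lyz2, -2.32 for C1qa, -2.11 for C1qc, -0.999 for Lrp2, -0.66 for Aqp1 and -0.56 for Krt18. Postn differed by -0.40, a call lost without H/R replicate 1, without H/R replicate 2 and without EGR1OV replicate 1. The chromosomal neighbours differed by 1.77 for Pla1a, 1.05 for Ildr1 and 0.84 for Plgrkt. No difference is weighed here against any explanation.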

How the results depend on the processing

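The calls of the 6 tested surface molecules held in all 3 comparisons under each alternative run (6 in EGR1OV against Sham, 4 in H/R against Sham, 5 in EGR1OV against H/R), the replicate block and each left-out library included, except that with no fold threshold Cd44 was also called between the treated groups, which made 6. Genes called over the table, in the order EGR1OV against Sham, H/R against Sham and EGR1OV against H/R, were 2291, 594 and 2641. They were 1315, 372 and 1520 at a mean of at least 5 FPKM, where fewer genes were tested, and 6417, 1635 and 7135 with no fold threshold. Limma voom on recovered reads called 1001 in H/R against Sham, and without the filter 3806 in EGR1OV against Sham and 4477 in EGR1OV against H/R, for which the cause was not tested. Leaving out 1 library gave 2238 to 2373, 449 to 579 and 2583 to 2703 genes. With the replicate block 2309, 516 and 2654 genes were called. Equal numbers did not pair the libraries: same-number deviations correlated at -0.02 to 0.06 over 9 pairs, and 3 of 9 libraries correlated best with their own number. The call of Egr1 in H/R was lost under 10 alternatives. Over the named genes of the lists and the chromosomal neighbours called in EGR1OV, 68 calls were lost and 26 gained across all alternatives. No called change turned direction.

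Cd80 and Cd86 are limited by depth, with 5 to 18 reads per library for Cd86. With 3 libraries per group the exact permutation test cannot go below 0.1.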
